A study of Mus musculus with 40 samples.

Results

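The 11 libraries described here came from livers of mice lacking nicotinamide phosphoribosyltransferase (Nampt) in hepatocytes (HNKO), 6 sampled on day 12 and 5 on day 6 of a feeding time course. They were taken by their titles from a series of 40 liver RNA-seq libraries, and the question was which transcripts had subsided and which had persisted between the 2 days. HNKO mice were Nampt fl/fl and carried Alb-Cre+/-, a recombinase driven by the albumin promoter and so directed to hepatocytes. Floxed littermates served as wild type (WT), with 4 libraries on day 6 and 5 on day 12. All mice were females, 9 weeks old when feeding began, with the strain label C57BL/6JBomTac, and all received a purified diet (PD), so that every group shared the diet. Each library holds RNA of whole liver, and the time of day of sampling is not given in the sources used here. The labels give the days as age, whereas the methods give them as days of feeding, and days of feeding are meant below.

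Nampt catalyses the step that limits the rate of NAD synthesis from nicotinamide, and NAD carries electrons in fuel oxidation. Injured liver usually shows a set of responses with separate cell sources. Hepatocytes raise acute phase proteins under interleukin-6 and interleukin-1, blood neutrophils and monocytes enter the tissue, interferon-responsive genes are switched on, stellate cells lay down collagen, and cells with duct markers expand. In bulk tissue, fewer cells of a type and less RNA per cell cannot be told apart.

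Total counts ranged from 16151037 to 34720845 in the HNKO day 6 libraries and from 18400982 to 34392404 in those of day 12. Levels are given as log2 CPM, counts scaled to the size of the library, and values of the day 6 HNKO libraries stand in the order of library numbers 6, 7, 29, 30 and 31. The targeted gene Nampt (chr12:32819545-32853349, plus strand) was at 5.69, 6.36, 5.48, 5.55 and 5.81 on day 6 and at 4.92 to 5.77 with a median of 5.67 on day 12, against 5.99 to 7.28 and 5.89 to 7.24 in WT. It was lower in HNKO than in WT by the whole-gene count on day 6 (-0.90 ± 0.24, adjusted p = 0.0128) and on day 12 (-0.82 ± 0.22, adjusted p = 0.0208), the libraries overlapping on day 6 and not on day 12. From day 6 to day 12 it differed within HNKO by -0.28 ± 0.22 with an adjusted p of 0.567. Albumin (Alb), the defining product of hepatocytes, was at 16.25, 15.93, 15.38, 15.91 and 15.90 on day 6 and at 16.08 to 16.48 with a median of 16.20 on day 12.

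Several libraries stood apart. The day 6 HNKO library 29 had a clock score, the mean level of Dbp, Tef, Per3, Ciart, Nr1d1 and Nr1d2 minus that of their opposite-phase genes Arntl, Npas2, Clock, Cry1 and Nfil3, of -1.32, against 2.65 to 4.04 in the other day 6 HNKO libraries, and had the highest Spp1 and Col1a1 of its group. Day 12 libraries 35 and 36 had clock scores of 0.57 and 1.18, against 2.74 to 4.18 in the other day 12 HNKO libraries, and mitochondrially encoded genes took 3.73% and 2.85% of their counts, against 5.22% to 6.76%. A list of 12 skeletal muscle genes, chosen after the values were seen, summed to 2880 CPM in day 12 library 11, 506 in library 13 and 55.3 in library 32, and to between 3.74 and 6.57 CPM in the day 6 HNKO libraries. The pancreatic enzyme gene Ctrb1 had 382 counts in day 12 library 35, 31 in library 11 and 5 in library 13, and 0 in all 5 day 6 HNKO libraries. The sodium/proton exchanger gene Slc9a3 had 601 counts in library 35 and at most 13 in the other HNKO libraries of both days. The fat gene Adipoq had 200, 60 and 154 counts in day 12 libraries 11, 13 and 32, and 118 in day 6 library 7. Erythroid markers summed to 707 CPM in library 35, against 58.4 to 192 in the other day 12 HNKO libraries and 124 to 275 on day 6. Calls that were lost without libraries 11, 13 and 35 are named beside the genes, and the part of the other tissues in these libraries was not tested beyond that.

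Across 20297 tested genes, 586 were higher (2.89%) and 567 lower (2.79%) on day 12 than on day 6 in HNKO liver (edgeR quasi-likelihood test, adjusted p below 0.05). The falls were larger than the rises, with a median log2 fold change of -0.74 against 0.53 among called genes. Of the called genes, 140 fell by more than 2-fold and 97 rose by more than 2-fold. All day 12 HNKO libraries lay below all day 6 ones for 54 of these 140 and above them for 27 of these 97, and all 12 muscle genes were among the called rises. Without libraries 11, 13 and 35, 78 of the 140 and 28 of the 97 were still called in the same direction. Over all tested genes, the day 12 HNKO libraries were all above those of day 6 in 2.3% and all below in 1.69%. Leaving out library 29 lowered the total from 1153 to 601 called genes, 351 higher and 250 lower. The plot of all genes places the leading names.

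Library numbers go from 1 to 41. In this order the days go from 3 to 21 in numbers 1 to 21 and start again at 3 in number 22. The labels name no such division, which was made here, and a run below means a stretch of numbers, not a sequencing run. Each run, 1 to 21 and 22 to 41, held HNKO libraries of both days. There were 2 of day 6 and 3 of day 12 in the first and 3 of each day in the second. Within each run, differences of mean log2 CPM were taken with no test. The called genes were chosen on these same libraries, which largely fixes their direction in each run, and of all 20297 tested genes 15439 in the first run and 17021 in the second had the sign of their overall change. Median changes were -0.43 and -0.94 for the 567 falls and 0.43 and 0.55 for the 586 rises. The change was smaller in the first run for 503 of the falls and 418 of the rises, against 11349 of all tested genes. Library 29 belongs to the second run. Values of both runs are given for the main genes below, the first run standing first.

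**Figure D1:**
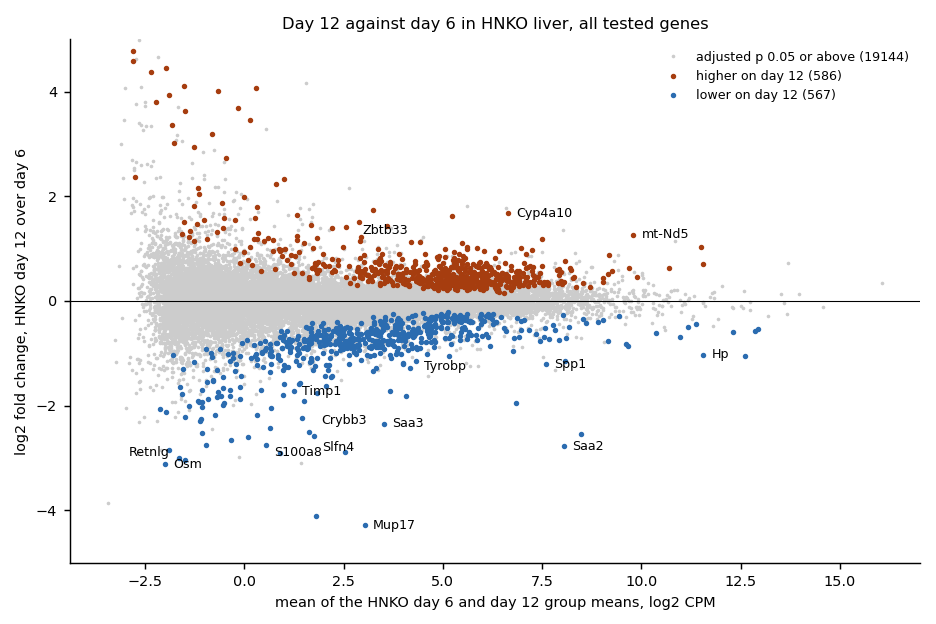
Each point is a tested gene, with the mean of the HNKO day 6 and day 12 group means (log2 CPM) on the x axis and the log2 fold change of day 12 over day 6 on the y axis. Red points (586) were higher and blue points (567) lower at an adjusted p below 0.05, and 37 genes, all higher and 25 of them called, lie beyond a log2 fold change of 5 and are not drawn.

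The same interval in WT liver, measured in other libraries, gave 378 higher genes (1.86%) and 76 lower genes (0.374%). Of the 586 genes that rose in HNKO, 556 also had a positive change in WT and 259 were called there, with a median change of 0.53 in HNKO and 0.44 in WT. Among the 567 genes that fell in HNKO, 490 had a negative change in WT and 27 were called, of only 76 WT falls in all, with medians of -0.74 and -0.26. These genes were chosen by their HNKO change, so its size is favoured in that comparison. A direct test of the difference between the HNKO and the WT day change called no gene (0%, smallest adjusted p = 0.646), with 1020 genes (5.03%) at an unadjusted p below 0.05. DESeq2 called 1 gene in this test, Ctrb1, whose counts lie in the libraries named above, and had 1077 genes at an unadjusted p below 0.05. No HNKO change reported below is therefore shown to differ from the WT change for a single gene.

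Against WT of the same day, 1709 genes were higher (8.42%) and 887 lower (4.37%) in HNKO on day 6. On day 12 these counts were 925 (4.56%) and 663 (3.27%). The larger number on day 6 depended on library 29, without which 909 genes were higher and 217 lower on day 6. Because these comparisons use the same HNKO libraries as the comparison between days, their values are set beside it below as descriptions.

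Acute phase proteins are secreted by hepatocytes in inflammation. Of 31 tested members, 18 were lower on day 12, against 2.79% of all tested genes, none was higher, and the median change was -0.75 against -0.01 over all tested genes. None of the 31 was called between the days in WT, where the median was -0.18. Their mean level lay between 9.15 and 9.41 in all 5 day 6 HNKO libraries and between 7.34 and 8.73 on day 12, and no library of the 2 groups overlapped. WT libraries ranged from 7.46 to 7.88 on day 6 and from 7.30 to 7.60 on day 12, and 19 members on day 6 and 12 on day 12 were higher in HNKO than in WT, against 8.42% and 4.56% of all tested genes. The number that fell was 11 without day 6 library 7, 11 without day 12 library 35, 16 without library 29 and 11 without libraries 11, 13 and 35. Within the first and the second run of libraries the median change of the list was -0.66 and -0.99.

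Promoters of these genes are shown because their members fell together, and so that the interferon group can be set beside them. The 7 shown were chosen among fallen genes that held a match to a motif of their group. Of other fallen genes, Serpina3n had no C/EBP match in this window but 1 to the NF-kB letters, and Osmr, Slfn4, S100a8 and the interferon-induced Ifi35 had none of the 4. The lines give the 250 bases before the start of each gene from RefSeq (GRCm38.p6), read 5′ to 3′ on the strand of the gene, and RefSeq starts can differ from the gene starts given with the values. Capitals mark matches, on either strand, to 4 motifs: GAAA and GAAA with any 2 bases between them (interferon response element), GGG, any 2 bases, TT, any base and CC (NF-kB), TTGCNNAA (C/EBP) and TTCNNNGAA (STAT), and neighbouring matches may overlap.
Saa2 (chr7:46751583-46751832, plus strand): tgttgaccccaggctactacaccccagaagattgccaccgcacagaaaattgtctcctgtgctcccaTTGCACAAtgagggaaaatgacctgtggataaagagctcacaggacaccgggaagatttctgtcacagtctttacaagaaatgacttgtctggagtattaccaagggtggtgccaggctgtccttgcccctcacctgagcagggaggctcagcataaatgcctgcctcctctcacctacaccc
Saa3 (chr7:46715677-46715926, minus strand): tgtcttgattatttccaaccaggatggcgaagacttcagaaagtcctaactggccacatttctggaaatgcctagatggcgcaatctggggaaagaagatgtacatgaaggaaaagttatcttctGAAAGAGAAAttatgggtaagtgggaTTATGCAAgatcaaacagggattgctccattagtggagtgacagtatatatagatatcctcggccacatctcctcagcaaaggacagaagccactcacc
Hpx (chr7:105600117-105600366, minus strand): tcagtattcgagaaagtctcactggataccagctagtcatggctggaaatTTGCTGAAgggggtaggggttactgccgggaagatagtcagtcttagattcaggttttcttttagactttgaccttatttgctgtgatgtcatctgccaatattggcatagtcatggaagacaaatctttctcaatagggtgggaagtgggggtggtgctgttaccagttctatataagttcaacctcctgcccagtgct
Steap4 (chr5:7960222-7960471, plus strand): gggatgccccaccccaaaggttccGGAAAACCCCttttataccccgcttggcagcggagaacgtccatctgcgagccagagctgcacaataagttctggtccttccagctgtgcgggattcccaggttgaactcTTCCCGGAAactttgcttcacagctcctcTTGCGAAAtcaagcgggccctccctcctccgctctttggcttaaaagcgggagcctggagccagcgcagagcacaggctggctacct
Ifit3b (chr19:34607707-34607956, plus strand): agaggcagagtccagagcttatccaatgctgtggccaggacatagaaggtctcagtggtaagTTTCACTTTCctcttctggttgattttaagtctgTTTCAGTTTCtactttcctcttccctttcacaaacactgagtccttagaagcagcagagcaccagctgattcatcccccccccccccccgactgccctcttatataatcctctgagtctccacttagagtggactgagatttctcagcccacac
Gbp2 (chr3:142620413-142620662, plus strand): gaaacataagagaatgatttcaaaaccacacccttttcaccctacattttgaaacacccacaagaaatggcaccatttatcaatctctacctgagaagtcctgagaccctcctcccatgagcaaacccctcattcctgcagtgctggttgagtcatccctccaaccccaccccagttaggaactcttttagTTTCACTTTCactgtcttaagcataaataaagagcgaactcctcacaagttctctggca
Oas1a (chr5:120907526-120907775, minus strand): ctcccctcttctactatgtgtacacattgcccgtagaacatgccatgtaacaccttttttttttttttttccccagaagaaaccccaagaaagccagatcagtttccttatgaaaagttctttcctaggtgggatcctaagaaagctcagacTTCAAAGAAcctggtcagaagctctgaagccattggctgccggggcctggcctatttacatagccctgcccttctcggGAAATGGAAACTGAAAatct

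The C/EBP letters lay 183 to 176 bases before the start in Saa2, at 99 to 92 in Saa3, at 200 to 193 in Hpx and at 87 to 80 in Steap4. Of 13 fallen acute phase genes with a promoter in the table, 8 (61.5%) held them, as did 13 of the 23 members of the whole list with a promoter (56.5%), fallen or not, against 9.55% of all 27025 promoters of this length. The interferon response letters occurred in Ifit3b at 188 to 179 and at 154 to 145, in Gbp2 at 59 to 50, and in Oas1a at 20 to 11 and at 14 to 5. They were held by 11 of 17 fallen interferon-stimulated genes with a promoter (64.7%) and by 14 of 23 members of the whole list (60.9%), against 3.04% of all promoters. The shares of the fallen genes were thus close to those of their lists. Saa3 also held the interferon response letters, Steap4 those of NF-kB and STAT, and Oas1a those of STAT, which are found in 3.04%, 4.0% and 7.18% of all promoters for the interferon response, NF-kB and STAT motifs. A match to these letters is a description of the window and does not show binding.

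Saa2, a serum amyloid A apolipoprotein (chr7:46751790-46754313, plus strand), was at 9.16, 10.62, 9.41, 9.21 and 10.21 on day 6 and at 4.05 to 8.03 with a median of 7.10 on day 12 in HNKO. Every day 12 library lay below every day 6 library, and libraries 32 and 35, at 4.05 and 4.09, came within the day 6 WT range of 3.30 to 4.30. The change was -2.77 ± 0.50 (adjusted p = 0.000583, exact permutation p = 0.00433, the smallest possible being 0.00216), 6.84-fold lower, and 29.5% of its 51-base stretches also occur in other annotated transcripts, so reads may be split with its near copies. Haptoglobin (Hp), which binds free haemoglobin, was at 11.81, 12.16, 12.57, 12.07 and 11.88 on day 6 and at 10.20 to 11.50 with a median of 11.12 on day 12. It was lower in every day 12 library, by 2.04-fold (-1.03 ± 0.18, adjusted p = 0.000583), against a change of -0.18 ± 0.20 in WT. Haem-binding hemopexin (Hpx) fell by 1.05 ± 0.16 (adjusted p = 7.22e-05) and the serum amyloid gene Saa3 by 2.35 ± 0.41 (adjusted p = 0.000414). The metalloreductase gene Steap4 fell by 1.14 ± 0.21 and the protease inhibitor gene Serpina3n by 0.77 ± 0.15 on the log2 scale (adjusted p = 0.000604 and 0.00103). The changes within the 2 runs of libraries were -2.31 and -4.44 for Saa2, -0.98 and -3.83 for Saa3, -0.57 and -1.52 for Hp, -0.77 and -1.39 for Hpx and -0.76 and -0.86 for Serpina3n. For Steap4 they were -0.18 and -2.0, and Steap4 was not called when only the 2 groups were fitted (-1.13). On day 12 Saa2, Saa3, Hp, Hpx and Steap4 were still higher in HNKO than in WT by 4.10 ± 0.56, 2.08 ± 0.45, 0.71 ± 0.19, 0.76 ± 0.16 and 0.93 ± 0.21, with adjusted p-values of 0.000117, 0.00629, 0.018, 0.00476 and 0.00742. Serpina3n differed from WT by 0.14 ± 0.15 (adjusted p = 0.609).

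**Figure D2:**
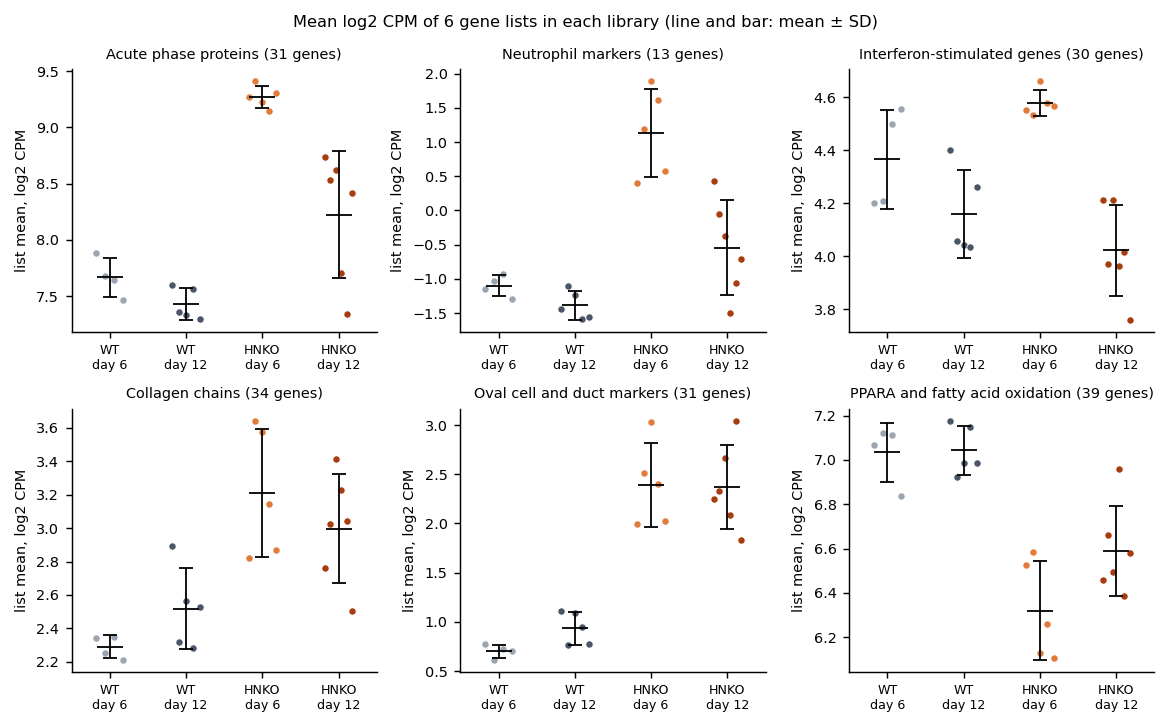
Points are libraries (4 WT day 6, 5 WT day 12, 5 HNKO day 6, 6 HNKO day 12), the y axes give the mean log2 CPM over the tested genes of a list, and lines with bars give the group mean ± SD. Acute phase and interferon-stimulated means of the HNKO day 12 libraries lie below those of all HNKO day 6 libraries, whereas the duct marker means overlap and lie between 1.83 and 3.04 in HNKO against 0.62 to 1.12 in WT.

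Cytokine and receptor genes that act on acute phase genes were examined next. In the list of interleukin-6, interleukin-1 and STAT3 signaling genes, 7 of 22 were lower, against 2.79% of all tested genes, none was higher, and the median change was -0.47 (0.02 in WT). Oncostatin M (Osm), an interleukin-6 family ligand made by leukocytes, was at -1.06, -2.04, -0.33, -0.30 and -0.66 on day 6 and at -3.80 to -2.21 with a median of -3.12 on day 12. All day 6 libraries were higher than all day 12 libraries, at the low level of 5 to 31 counts on day 6 and 0 to 4 on day 12, and the fitted change was -3.12 ± 0.71 (adjusted p = 0.00543). Its receptor chain gene Osmr, with overlapping libraries, fell by 0.64 ± 0.19 (adjusted p = 0.0386) and was not called without library 7, 29, 30, 32, 35 or 36 (-0.64 to -0.49). Without libraries 11, 13 and 35, Osm, Osmr, Il1rn and Tnf changed by -2.78, -0.71, -1.40 and -1.42 and were not called. The interleukin-1 receptor gene Il1r1 fell by 0.68 ± 0.14 (adjusted p = 0.00331) without overlap, beside a WT change of 0.18 ± 0.16. Tnf, an inflammatory cytokine, fell by 1.35 ± 0.37 and the interleukin-1 antagonist Il1rn by 1.29 ± 0.35 (adjusted p = 0.0225 and 0.0214). Neither held its call without single libraries: Tnf was not called without library 29, 30, 32, 35 or 36 (-1.28 to -1.07) and Il1rn not without library 7, 29, 32, 35 or 36 (-1.21 to -1.07). Within the 2 runs of libraries the changes were -1.84 and -2.38 for Osm, -0.32 and -0.83 for Osmr, -0.40 and -2.02 for Il1rn, -0.57 and -0.77 for Il1r1 and 0.01 and -2.40 for Tnf, near 0 in the first. With only the 2 groups fitted Osmr, Il1rn and Tnf were not called (-0.63, -1.27 and -1.33). The count of 7 was sensitive to single libraries: 2 without day 12 library 32, 2 without 35, 3 without 36, 3 without 29, 4 without 30 and 11 without 11.

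Neutrophil markers showed the deepest median fall of the 40 lists. Of 13 tested members 10 were lower, against 2.79% of all tested genes, and the median change was -1.69 (-0.36 in WT, where none was called). Only 13 of 18 members passed the count filter, and 12 did without library 29, so passing depended in part on a day 6 library. A fall is favoured for members that pass through day 6 libraries where they are high. S100a8, a calcium-binding protein abundant in neutrophils, was at 1.08, 1.95, 3.08, 2.71 and 1.41 on day 6 and at -2.80 to 0.97 with a median of -0.55 on day 12. Day 12 library 11, at 0.97, came just under the lowest day 6 library, and libraries 32 and 35 lay below the whole WT range of -1.93 to -1.45 on day 12. The change was -2.75 ± 0.50 (adjusted p = 0.000653), and for its partner S100a9 it was -2.24 ± 0.43 (adjusted p = 0.00118) with overlap. Retnlg, a resistin-like granulocyte product, fell by 3.01 ± 0.53 without overlap (adjusted p = 0.000559), the chemokine receptor gene Cxcr2 by 2.60 ± 0.49 (adjusted p = 0.000991) and the granulocyte colony-stimulating factor receptor gene Csf3r by 1.34 ± 0.27 (adjusted p = 0.00209). The level of Retnlg was low, with a median of 4 counts over the HNKO libraries of both days. It passed the count filter in only 8 of 11 leave-one-out fits. Csf3r was not called with only the 2 groups fitted (-1.33) or with all 40 libraries (-1.32). Slfn4, a schlafen gene of myeloid cells (chr11:83175186-83190216, plus strand), was at 2.30, 2.22, 3.83, 3.98 and 2.85 on day 6 and at -0.34 to 1.89 with a median of 0.31 on day 12. No library overlapped, and at -2.58 ± 0.35 (adjusted p = 3.93e-05) it had the smallest p-value of the 567 falls, beside a WT change of -0.02 ± 0.48. It remained 1.47 ± 0.40 above WT on day 12 (adjusted p = 0.0209). Without library 29, 6 of 12 tested neutrophil markers fell. Within the 2 runs of libraries the list medians were -0.77 and -2.45, with -1.39 and -4.41 for S100a8, -1.0 and -3.44 for S100a9, -1.50 and -2.59 for Retnlg, -1.14 and -3.73 for Cxcr2, -0.34 and -2.29 for Csf3r and -1.22 and -3.60 for Slfn4.

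**Figure D3:**
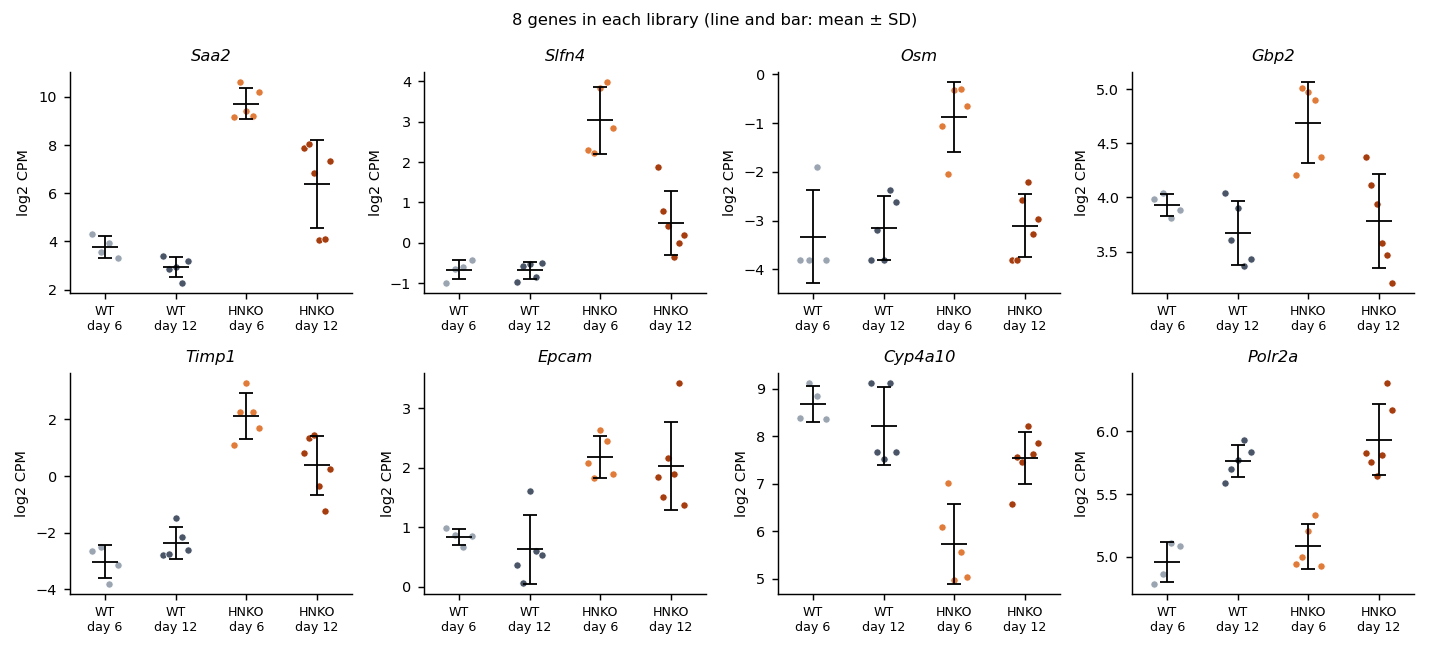
Points are single libraries, the y axes give log2 CPM, and lines with bars give the mean ± SD of 4 WT day 6, 5 WT day 12, 5 HNKO day 6 and 6 HNKO day 12 libraries. Saa2, Slfn4 and Osm do not overlap between HNKO day 6 and day 12, Epcam does, Cyp4a10 lies higher on day 12, and Polr2a is higher on day 12 in both genotypes.

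Macrophage genes fell in part. Of 17 markers of recruited macrophages 7 were lower, against 2.79% of all tested genes, with a median of -0.96 (-0.24 in WT, 0 called), 3 without library 29. Among them were the galectin gene Lgals3 (-1.08 ± 0.24, adjusted p = 0.00401), lysozyme Lyz2 (-0.96 ± 0.21, adjusted p = 0.00378), the protease gene Ctss (-0.86 ± 0.16, adjusted p = 0.000902), the scavenger receptor gene Msr1 (-0.64 ± 0.12, adjusted p = 0.00105) and the monocyte chemokine receptor gene Ccr2 (-1.71 ± 0.41, adjusted p = 0.00831). Lgals3, Lyz2 and Ccr2 were still higher than WT on day 12, by 1.34 ± 0.25, 0.71 ± 0.21 and 1.71 ± 0.45 (adjusted p = 0.00227, 0.0344 and 0.0173). Without library 29 the day changes of Lgals3 and Ccr2 were -0.75 and -1.20 and were not called. Ccr2 was also not called without libraries 11, 13 and 35 (-1.61), and Lgals3 and Lyz2 not with only the 2 groups fitted (-1.07 and -0.95). Tyrobp, an adaptor of myeloid receptors, was at 4.74, 4.72, 5.51, 4.94 and 4.53 on day 6 and at 3.44 to 4.05 with a median of 3.78 on day 12. It fell without overlap by 1.15 ± 0.17 (adjusted p = 6.94e-05), and WT gave -1.07 ± 0.19 (adjusted p = 0.00091). Ms4a4c, a monocyte membrane gene, was at 1.31, 1.83, 2.65, 2.08 and 1.09 and at -0.27 to 0.66 with a median of 0.03 on the 2 days. Its change was -1.80 ± 0.26 (adjusted p = 5.18e-05) beside -0.22 ± 0.31 in WT, and on day 12 it was 0.24 ± 0.27 from WT (adjusted p = 0.631). Ms4a6d, the immunoglobulin receptor gene Fcgr1, Cd300c2 and Tnfaip8l2 also fell without overlap, by 1.33 ± 0.21, 1.12 ± 0.18, 1.01 ± 0.16 and 1.08 ± 0.16 (adjusted p = 0.000152, 0.000183, 0.000178 and 8.09e-05). The rule for naming took the 12 falls of smallest p without overlap. For genes that entered by it, such as these and Tyrobp and Ms4a4c, the fall and the lack of overlap follow from the choice. With all 40 libraries Fcgr1 and Tnfaip8l2 were not called (-1.10 and -1.06). In the 2 runs of libraries the median of the recruited macrophage list was -0.42 and -1.54, and the changes were -0.42 and -1.57 for Lgals3, -0.49 and -2.46 for Ccr2, -0.78 and -1.40 for Tyrobp and -1.14 and -2.09 for Ms4a4c.

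Kupffer cells are the macrophages resident in liver sinusoids. In HNKO 5 of 9 of their markers fell, against 2.79% of all tested genes, and in WT 4 of 9, against 0.374%. The medians were -0.60 and -0.55. Clec4f changed by -0.64 ± 0.14 in HNKO and by -0.63 ± 0.16 in WT, Vsig4 by -0.60 ± 0.14 and -0.63 ± 0.16, Cd5l by -0.73 ± 0.18 and -0.75 ± 0.20, and Folr2 by -0.83 ± 0.23 and -1.06 ± 0.26 (adjusted p in HNKO = 0.00532, 0.00727, 0.00894 and 0.0245). Folr2 was not called without library 6, 12, 29 or 32 (-0.82 to -0.71), nor with only the 2 groups fitted (-0.82) or with all 40 libraries (-0.81). The list medians in the 2 runs of libraries were -0.61 and -0.71. The haemoglobin scavenger receptor gene Cd163 stood apart from these in value. It was at 5.57, 4.37, 4.81, 5.41 and 5.26 on day 6 and at 3.92 to 4.34 with a median of 4.13 on day 12, every day 12 library being lower. The HNKO change was -1.02 ± 0.20 (adjusted p = 0.00175) and the WT change -0.29 ± 0.22 (adjusted p = 0.643), and on day 12 Cd163 was below WT by 0.80 ± 0.20 (adjusted p = 0.0151).

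Among chemokines 4 of 24 fell, against 2.79% of all tested genes, and none rose, with a median of -0.85 (-0.18 in WT). Ccl6, a myeloid chemokine, was at 4.34, 4.30, 5.34, 4.74 and 4.18 on day 6 and at 2.78 to 3.64 with a median of 3.59 on day 12. Its libraries did not overlap, and the change was -1.21 ± 0.19 (adjusted p = 0.00013). Monocyte attractant Ccl7 fell by 2.19 ± 0.55, Ccl4 by 2.0 ± 0.42 and the interferon-induced Cxcl10 by 1.44 ± 0.37 (adjusted p = 0.0128, 0.00307 and 0.016), all with overlapping libraries. Leaving out library 29 gave 2 falls, without Ccl7 (-1.61) and Cxcl10 (-1.02), Cxcl10 was also not called without library 35 (-1.29), and leaving out library 11 gave 7 falls. Without libraries 11, 13 and 35 Ccl7 and Cxcl10 were not called either (-2.42 and -1.38), nor was Cxcl10 with only the 2 groups fitted (-1.43). Ccl6 changed within the 2 runs by -0.70 and -1.54, Ccl7 by -0.34 and -2.57, Ccl4 by -1.21 and -1.70 and Cxcl10 by -0.17 and -2.46. None of 17 lymphocyte markers was called, although all 17 had negative changes (median -0.41, -0.34 in WT). The granzyme gene Gzmb had the smallest p of them (-0.97 ± 0.31, adjusted p = 0.0546) and was called by DESeq2 (-0.96), with newer edgeR estimation (-0.95), with the clock score as a covariate (-0.97), and without library 31 (-1.11) or 35 (-1.09). Of 10 class II antigen presentation genes 1 fell by edgeR, against 2.79% of all tested genes, while DESeq2 called 3 lower. The edgeR call was the loading factor H2-DMa (-0.83 ± 0.19, adjusted p = 0.0065). It was not called without library 29 (-0.66) or with only the 2 groups fitted (-0.82).

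Of 30 interferon-stimulated genes 20 fell, against 2.79% of all tested genes, with none higher, and all 30 changes were negative with a median of -0.54 (-0.19 in WT, 0 called). Their mean level was between 4.53 and 4.66 in the day 6 HNKO libraries and between 3.76 and 4.21 on day 12, without overlap. WT ranged from 4.20 to 4.55 on day 6 and from 4.03 to 4.40 on day 12. On day 6, 7 members were called higher than WT, against 8.42% of all tested genes, and the median difference was 0.10. By day 12 none was higher and 4 were lower than WT, against 3.27% of all tested genes (median -0.17). Gbp2, an interferon-induced GTPase (chr3:142620602-142638008, plus strand), was at 4.21, 5.01, 4.97, 4.90 and 4.37 on day 6 and at 3.21 to 4.37 with a median of 3.76 on day 12. Library 11 overlapped the day 6 range, and the change was -0.90 ± 0.16 (adjusted p = 0.000659). Ifit3b, a tetratricopeptide antiviral gene, was at 2.57, 2.77, 2.60, 2.86 and 2.76 and at 1.75 to 2.07 with a median of 1.94. Its day 12 libraries all lay below those of day 6 and also below every day 12 WT library (2.29 to 2.95), with a change of -0.81 ± 0.15 (adjusted p = 0.00102) and a day 12 difference from WT of -0.66 ± 0.15 (adjusted p = 0.00973). As 44.5% of its 51-base stretches occur in other transcripts, the split of reads with Ifit3 (-0.60 ± 0.13, adjusted p = 0.00365) is uncertain. The RNA-sensing oligoadenylate synthetase genes Oas1a and Oas3 fell by 0.93 ± 0.20 and 0.90 ± 0.19 (adjusted p = 0.00398 and 0.003), and 57.0% of the 51-base stretches of Oas1a occur in other transcripts, so its reads are uncertain too. The count of 20 was 12 without library 29, 12 without library 36, 13 without library 35 and 13 without libraries 11, 13 and 35. With all 40 libraries Gbp2 (-0.88), Ifit3b (-0.79) and Oas3 (-0.88) were not called, nor was Oas3 with only the 2 groups fitted (-0.89). Within the 2 runs of libraries the list medians were -0.45 and -0.69, and the changes were -0.47 and -1.33 for Gbp2, -0.77 and -0.82 for Ifit3b and -0.50 and -1.32 for Oas1a.

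Matrix genes did not show a like number of calls. None of 34 collagen chains was called between the days by edgeR, with a median of -0.22, 9 at an unadjusted p below 0.05 1 called higher by DESeq2 and 1 called lower with length adjustment. Against WT, 16 collagen genes were higher on day 6 and 7 on day 12, where 8.42% and 4.56% of all tested genes were. The day 6 background itself fell without library 29, from 1709 to 909 higher genes. Col1a1, a chain of fibrillar type I collagen, was at 4.81, 6.44, 7.56, 5.87 and 5.84 on day 6 and at 4.42 to 5.97 with a median of 5.02 on day 12. The groups overlapped, library 29 being highest at 7.56, and the change was -1.19 ± 0.50 (adjusted p = 0.182). It was above WT by 4.02 ± 0.67 on day 6 and by 2.03 ± 0.54 on day 12 (adjusted p = 0.000197 and 0.02). Col1a2 and Col3a1 changed by -0.93 ± 0.38 and -1.07 ± 0.43 (adjusted p = 0.171 and 0.155). Without library 29 the changes were -0.65 for Col1a1, -0.52 for Col1a2 and -0.69 for Col3a1. These 3 genes stand outside the rule for naming genes and were taken as the defining fibrillar chains. In the 2 runs of libraries Col1a1 differed by -0.29 and -1.59.

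Of 34 matrix enzymes and inhibitors 2 fell, a share not far from the 2.79% of all tested genes, and the values are those of single genes. Timp1, an inhibitor of matrix metalloproteinases, was at 1.11, 2.28, 3.29, 2.24 and 1.70 on day 6 and at -1.24 to 1.44 with a median of 0.53 on day 12. The libraries overlapped in part, the change was -1.72 ± 0.51 (adjusted p = 0.0364), and on day 12 the gene was 3.47 ± 0.70 above WT (adjusted p = 0.00369). The aggrecanase gene Adamts4 fell by 1.57 ± 0.41 (adjusted p = 0.0164), and Timp1 was not called without library 7, 29, 30, 32, 35 or 36 (-1.74 to -1.30) and Adamts4 not without library 29 or 30 (-1.44 to -1.10). Neither was called without libraries 11, 13 and 35 (-1.79 and -1.62), and within the 2 runs of libraries they changed by -0.49 and -2.85 and by -0.07 and -2.61. Among 41 matrix glycoproteins 1 rose and 1 fell, shares not far from the 2.89% and 2.79% of all tested genes, while DESeq2 called 1 higher and 3 lower. Fibronectin (Fn1) rose by 0.71 ± 0.17 (adjusted p = 0.00756), as it did in WT (1.03 ± 0.19, adjusted p = 0.00095), and Emilin2 fell by 0.85 ± 0.20 (adjusted p = 0.00627). Timp1, Adamts4 and Emilin2 were not called with only the 2 groups fitted (-1.71, -1.56 and -0.84), nor Timp1 with the clock score as a covariate (-1.58). None of 22 stellate cell and myofibroblast markers was called by edgeR, with a median of -0.15, 4 at an unadjusted p below 0.05 and 1 called higher by DESeq2, with length adjustment and with the clock score as a covariate.

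Markers of duct and oval cells, the epithelium that lines bile ducts and expands in injured liver, stood above WT on both days in most members. Of 31 tested genes 24 were higher than WT on day 6 and 25 on day 12, with median differences of 1.82 and 1.59, against 8.42% and 4.56% of all tested genes, and 22 were already higher on day 3, against 2.95%. Between day 6 and day 12 in HNKO 2 rose and 1 fell, against 2.89% and 2.79% of all tested genes, with a median of -0.06. Without library 29 there was 1 rise and no fall, and without libraries 11, 13 and 35 there was neither. The adhesion molecule gene Epcam (chr17:87635979-87651129, plus strand) was at 2.07, 1.83, 2.64, 2.45 and 1.90 on day 6 and at 1.37 to 3.42 with a median of 1.86 on day 12. The groups overlapped, with the highest day 12 value in library 35, and the difference was 0.01 ± 0.27 (adjusted p = 0.996), or -0.44 without library 35. Above WT, Epcam stood at 1.40 ± 0.32 on day 6 and 1.54 ± 0.29 on day 12 (adjusted p = 0.00385 and 0.00228). Osteopontin (Spp1), secreted by duct cells and macrophages, was at 7.24, 7.61, 9.51, 8.15 and 8.05 on day 6 and at 6.53 to 7.69 with a median of 7.17 on day 12. It was the member that fell (-1.21 ± 0.32, adjusted p = 0.0185), with overlapping libraries, and was not called without library 29 or 35 (-1.12 to -0.67), nor without libraries 11, 13 and 35 (-1.10) or with only the 2 groups fitted (-1.20). In the 2 runs of libraries Spp1 changed by -0.08 and -1.76 and Epcam by -0.12 and -0.10, and the list medians were 0.18 and -0.27. Of the 2 members that rose, the mucin gene Muc1 changed by 2.24 ± 0.68 (adjusted p = 0.0439), but by 0.04 without library 35 and by -0.15 without libraries 11, 13 and 35. It was not called without library 6, 29, 30 or 31 (2.025 to 2.313), with only the 2 groups fitted (2.25) or with all 40 libraries (2.26). The call was also lost with the number series as a covariate (2.228), with robust estimation (2.239) and with no low count filter (2.228). The keratin gene Krt7, the transcription factor gene Sox9 and the adhesion gene Ncam1 differed between the days by -0.06 ± 0.38, -0.18 ± 0.25 and 0.15 ± 0.40 (adjusted p = 0.963, 0.785 and 0.905). Against WT, Ncam1 was higher on both days (2.48 ± 0.54 and 1.55 ± 0.43), Krt7 on day 6 (2.02 ± 0.49) with 1.13 ± 0.40 on day 12 (adjusted p = 0.075), and Sox9 on day 6 (1.15 ± 0.29) with 0.33 ± 0.25 on day 12 (adjusted p = 0.451).

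A view of persistence that does not use the day 6 and day 12 libraries for choosing genes starts from day 3, where 598 genes were higher (2.95%) and 347 lower (1.71%) in HNKO than in WT. Of the 598, 557 were not called between day 6 and day 12 in HNKO, 32 fell and 9 rose, with a median change of -0.16 (0.10 in WT). The share that fell, 5.35%, compares with 2.79% of all tested genes and the share that rose, 1.51%, with 2.89%. These 598 genes had a median difference from WT of 1.15 on day 3, 1.06 on day 6 and 0.82 on day 12. Choosing them on day 3 favours the size of the day 3 value. Of the 598, 427 (71.4%) were called higher again on day 6 and 285 (47.7%) on day 12, against 8.42% and 4.56% of all tested genes. On day 12, 96% were on the same side. Of the 347 lower genes, 11 rose (3.17%), 3 fell (0.865%) and 333 were not called, against 2.89% and 2.79% of all tested genes that rose and fell. Called lower again were 169 (48.7%) on day 6 and 106 (30.5%) on day 12, against 4.37% and 3.27% of all tested genes. The medians for the lower genes were -0.57, -0.43 and -0.31 on the 3 days.

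**Figure D4:**
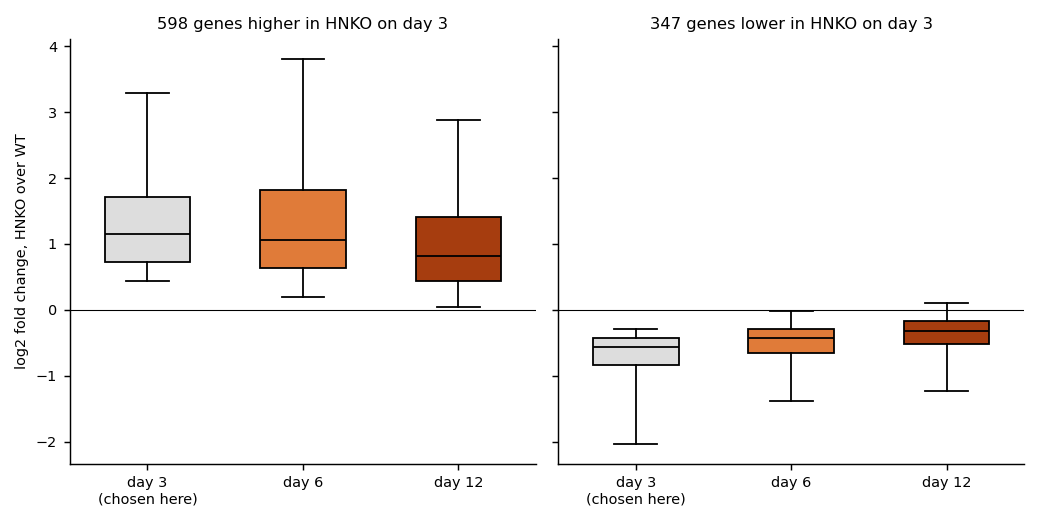
Boxes give the median and quartiles, and whiskers the 5th and 95th percentiles, of the log2 fold change of HNKO over WT on days 3, 6 and 12 for the 598 genes higher (left) and the 347 lower (right) on day 3, where they were chosen. The medians of the left panel are 1.15, 1.06 and 0.82, and those of the right panel -0.57, -0.43 and -0.31.

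By the rule for naming, 6 genes stood for those that differed from WT on days 3 and 12 and not between days 6 and 12. Unlike the sets above, they were chosen with the day 6 and day 12 libraries as well. Their small day changes and their day 12 differences from WT are thus fixed by the choice and only describe these genes. Cftr, the chloride channel of duct cells, changed by -0.09 ± 0.33 within HNKO and was 2.81 ± 0.46 and 2.71 ± 0.40 above WT on days 6 and 12. Cdh6, a cadherin, changed by -0.09 ± 0.29 and stood 2.85 ± 0.40 and 2.43 ± 0.34 above WT. For the RNA-binding protein gene Bicc1 the day change was -0.13 ± 0.26, for the secreted protein gene Scube3 -0.17 ± 0.30 and for the phospholipid flippase gene Atp11a -0.03 ± 0.16, with day 12 differences from WT of 1.37 ± 0.27, 1.59 ± 0.33 and 1.56 ± 0.16. The kinase gene Tec was on the lower side, at -0.40 ± 0.09 from WT on day 12 and -0.05 ± 0.09 between the days. In the 2 runs of libraries the day changes of 3 of the 6 had opposite signs, at 0.45 and -0.75 for Scube3, 0.40 and -0.26 for Cftr and 0.27 and -0.29 for Atp11a, so that their small overall changes are means of unlike values. For Cdh6, Bicc1 and Tec they were -0.01 and -0.31, -0.0 and -0.27 and -0.04 and -0.06.

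The metabolic lists had 0 to 3 called rises each. Of 39 targets of PPARA, the fatty acid sensor that drives oxidation, 3 rose from day 6 to day 12, against 2.89% of all tested genes, none fell, 31 changes were positive, and the median was 0.12 (-0.08 in WT). The list was lower than WT in 23 members on day 6 (median -0.57) and in 10 on day 12 (median -0.39), against 4.37% and 3.27% of all tested genes. Cyp4a10, a fatty acid omega-hydroxylase (chr4:115518264-115533649, plus strand), was at 6.08, 7.01, 4.98, 5.56 and 5.04 on day 6 and at 6.58 to 8.22 with a median of 7.59 on day 12. Only library 11 of day 12 fell within the day 6 range, and the change was 1.68 ± 0.47 (adjusted p = 0.0254), with WT at 7.51 to 9.12 on day 12, and 29.2% of its 51-base stretches occur in other transcripts. The peroxisomal enzyme gene Ehhadh rose by 0.60 ± 0.18 and the mitochondrial dehydrogenase gene Acadl by 0.40 ± 0.11 (adjusted p = 0.0438 and 0.0169), and both remained below WT on day 12 (-0.61 ± 0.18 and -0.35 ± 0.10, adjusted p = 0.0325 and 0.0356). Cyp4a10 was not called without library 29, 30, 31 or 32 (1.51 to 1.59), Ehhadh not without library 6, 12, 29, 30, 31, 32, 35 or 36 (0.48 to 0.62) and Acadl not without library 29 or 30 (0.33 to 0.37), while without libraries 11, 13 and 35 the list had 4 rises. Acadl was not called with only the 2 groups fitted (0.41), nor Ehhadh with all 40 libraries (0.62). Within the 2 runs of libraries the list medians were -0.10 and 0.37, and the changes were 0.65 and 2.7 for Cyp4a10, 0.21 and 0.88 for Ehhadh and 0.11 and 0.64 for Acadl.

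Other metabolic lists had up to 3 rises of 23 to 28 members, again against 2.89% of all tested genes, and most of these calls were lost on leaving out a single library. In the bile acid list of 28, 2 rose. The transporter gene Slco1a4 changed by 0.66 ± 0.20 (adjusted p = 0.042) and was not called without library 6, 7, 11, 29, 32, 35 or 36 (0.56 to 0.67), nor without libraries 11, 13 and 35 (0.69). The export pump gene Abcc2 rose by 0.58 ± 0.12 without overlap (adjusted p = 0.00242), and WT gave 0.47 ± 0.13 (adjusted p = 0.0527). In glucose metabolism, with 3 rises and 1 fall of 27, the transcription factor gene Foxo1 and the insulin receptor substrate gene Irs1 rose without overlap, by 0.63 ± 0.12 and 0.78 ± 0.16 (adjusted p = 0.000759 and 0.0024). Both also rose in WT, by 0.64 ± 0.13 and 0.68 ± 0.18. The hexokinase gene Hk3, active in leukocytes, fell by 0.68 ± 0.14 (adjusted p = 0.00272), and the coactivator gene Ppargc1a rose by 0.64 ± 0.17 (adjusted p = 0.0204) but was not called without library 29, 30 or 35 (0.55 to 0.60), nor without libraries 11, 13 and 35 (0.63) or with length adjustment (0.58).

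Lipid synthesis had 2 rises of 25, in the phosphatidate phosphatase gene Lpin1 (1.18 ± 0.36, adjusted p = 0.0422) and the desaturase gene Fads1 (0.51 ± 0.14, adjusted p = 0.028). Lpin1 was not called without library 7, 12, 29, 30, 31, 35 or 36 (0.74 to 1.25), nor Fads1 without library 7, 12, 29, 30, 31 or 36 (0.44 to 0.51). Neither was called without libraries 11, 13 and 35 (1.03 and 0.57). With only the 2 groups fitted Lpin1 (1.19) and Srebf2 (0.49) were not called, nor Lpin1 with length adjustment (1.12). Its 25 members had 24 positive changes with a median of 0.51 in HNKO and of 0.33 in WT. Cholesterol synthesis had 22 positive changes of 23 and 2 called rises. Of these, Srebf2, which encodes the regulator of the pathway, changed by 0.48 ± 0.13 (adjusted p = 0.0239) and was not called without library 6, 7, 12, 31 or 35 (0.41 to 0.47), nor without libraries 11, 13 and 35 (0.54). The list medians in the 2 runs of libraries were 0.29 and 0.64 for lipid synthesis and 0.69 and 0.02 for cholesterol synthesis.

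Among 37 genes of NAD synthesis and use, no synthesis gene was called by edgeR in the fit used here, while DESeq2, the fit with the clock score and the fit without library 29 each called 1 member of the list higher. The NAD-consuming glycohydrolase gene Cd38 fell by 0.39 ± 0.10 (adjusted p = 0.0131), though not without library 29 (-0.30), and the ADP-ribosyltransferase gene Parp14, also an interferon-responsive gene, fell by 0.33 ± 0.09 (adjusted p = 0.0283), though not without library 7, 29, 30, 32, 35 or 36 (-0.34 to -0.26), and neither was called with only the 2 groups fitted (-0.38 and -0.32) or with all 40 libraries (-0.37 and -0.31). None of 40 drug and steroid P450 genes and none of 33 amino acid and urea cycle genes was called by edgeR or DESeq2, with 5 and 0 at an unadjusted p below 0.05. Of 37 other secreted hepatocyte proteins 1 rose and 5 fell, against 2.89% and 2.79% of all tested genes, and 3 fell without library 7, 12, 31, 32 or 35. Among the falls the inhibitor precursor gene Ambp changed by -0.50 ± 0.12 (adjusted p = 0.00771) without overlap, or by -0.49 and not called with only the 2 groups fitted. The coagulation inhibitor gene Serpina10 also fell without overlap, by 0.71 ± 0.11 (adjusted p = 9.91e-05), beside -0.18 ± 0.12 in WT.

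The antioxidant, integrated stress response and chaperone lists held 1 fall each, of 21 to 28 members, which is near the 2.79% of all tested genes, and the early response list 2 of 24. Heme oxygenase 1 (Hmox1), which degrades heme, fell by 1.06 ± 0.21 (adjusted p = 0.00165) as the only call of 26 antioxidant genes. The cystine carrier gene Slc7a11 fell by 2.17 ± 0.62 (adjusted p = 0.0314) of 21 integrated stress response genes and was still 4.84 ± 1.09 above WT on day 12 (adjusted p = 0.00774), but was not called without library 13, 29, 30, 32, 35 or 36 (-2.16 to -1.75), by DESeq2 (-2.15), with the number series as a covariate (-2.0), with only the 2 groups fitted (-2.16) or with all 40 libraries (-2.14). DESeq2 called no fall and 1 rise in that list. Xbp1, a transcription factor of the unfolded protein response, fell by 0.53 ± 0.14 (adjusted p = 0.0184), as did the early response genes Ier3 and Ier5 by 1.43 ± 0.38 and 0.84 ± 0.22 (adjusted p = 0.0179 and 0.0197). Xbp1 was not called without library 30 or 35 (-0.48), Ier3 not without library 29, 30 or 35 (-1.33 to -1.10) and Ier5 not without library 29, 30 or 35 (-0.77 to -0.50). With only the 2 groups fitted Hmox1 (-1.05), Ier3 (-1.42) and Ier5 (-0.82) were not called, and with all 40 libraries Xbp1 (-0.51) and Ier3 (-1.40) were not. Without libraries 11, 13 and 35 Slc7a11, Xbp1, Ier3 and Ier5 changed by -2.35, -0.58, -1.42 and -0.78 and were not called. Within the 2 runs of libraries the changes were -0.48 and -1.74 for Hmox1, -0.59 and -3.16 for Slc7a11, 0.14 and -2.55 for Ier3 and -0.17 and -1.05 for Ier5. None of 40 cell cycle genes and none of 22 clock genes was called by edgeR, nor by DESeq2, though 1 clock gene rose with the clock score as a covariate, with 8 and 2 at an unadjusted p below 0.05 and medians of -0.60 and 0.03. The remaining lists, of endothelial, hepatocyte zone, hepatocyte transcription factor, Notch and YAP, p53, growth hormone, erythroid, pancreas and adipose genes, had at most 2 calls in either direction.

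Many of the rises were shared with WT, where 259 of the 586 were also called higher, although the WT rises fell in number from 378 to 179 when each library was adjusted for its trend on transcript length. Beside 2 gene models with no name, the 12 rises of smallest p without overlap were Crebbp, a histone acetyltransferase, Brpf3, a chromatin reader, the transcription factor genes Zbtb33, Zfhx3, Atf7 and Epas1, the editing cofactor gene A1cf, the ubiquitin ligase gene Hectd4, the coat protein gene Sec24a and the lipid droplet enzyme gene Hsd17b11. Zbtb33 was at 3.33, 3.40, 3.56, 3.60 and 3.34 on day 6 and at 3.99 to 4.69 with a median of 4.24 on day 12. It rose without overlap by 0.90 ± 0.12 (adjusted p = 3.93e-05), and by 0.94 ± 0.14 in WT (adjusted p = 9.15e-05). Polr2a, the large subunit of RNA polymerase II and named outside the rule, was at 4.95, 5.0, 5.21, 5.34 and 4.93 on day 6 and at 5.65 to 6.39 with a median of 5.82 on day 12. Again no library overlapped, with changes of 0.87 ± 0.13 in HNKO and 0.81 ± 0.15 in WT (adjusted p = 8.09e-05 and 0.000895). Crebbp changed by 0.66 ± 0.09 and 0.75 ± 0.10, A1cf by 0.90 ± 0.12 and 0.79 ± 0.13, and Hsd17b11 by 0.95 ± 0.13 and 0.53 ± 0.14 in the 2 genotypes. The mitochondrially encoded mt-Nd5, a complex I subunit, was at 9.81, 9.46, 8.23, 9.15 and 9.04 on day 6 and at 10.04 to 10.85 with a median of 10.50 on day 12. Its libraries did not overlap, and the change was 1.26 ± 0.28 in HNKO and 1.35 ± 0.31 in WT (adjusted p = 0.00398 and 0.0105), with mt-Nd4 at 0.87 ± 0.26 and 0.96 ± 0.29. These were the 2 calls in HNKO among 10 mitochondrially encoded genes, against 2.89% of all tested genes that rose, and WT also had 2 rises, against 1.86%. The median change of the 10 genes was 0.17 in HNKO and 0.32 in WT. Their summed level overlapped between the days, at 32854 to 61227 CPM on day 6 and 27448 to 64155 on day 12, and day 12 libraries 35 and 36 were at 34474 and 27448. Of mt-Nd4, 62.2% of the 51-base stretches occur in other transcripts. Without library 7, 11, 12, 13, 29, 30 or 31 (0.71 to 0.92), mt-Nd4 was not called, nor without libraries 11, 13 and 35 (0.78) or with only the 2 groups fitted (0.88). In the 2 runs of libraries Zbtb33 rose by 0.74 and 1.04 and Polr2a by 0.77 and 0.96.

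Length of the transcript went with the rises. The longest annotated transcript (GENCODE M21, GRCm38) had a median of 5691 bases for the 586 risen genes, 2684 for the 567 fallen genes and 2774 for all tested genes. Of the rises, 359 belonged to the longest and 30 to the shortest of 5 equal groups of genes by length. The median change of the longest group was 0.06 in HNKO and 0.10 in WT. By library, the level of the longest minus that of the shortest group, relative to the mean over libraries, ranged from -0.09 to 0.06 on day 6 and from -0.08 to 0.10 on day 12 in HNKO, and from -0.15 to -0.09 and from -0.01 to 0.09 in WT. With each library adjusted for its trend on length, 421 of the 586 rises and 459 of the 567 falls were still called, while in WT the calls fell from 454 to 229, of which 179 were rises. The part of library making in these rises was not tested beyond that.

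**Figure D5:**
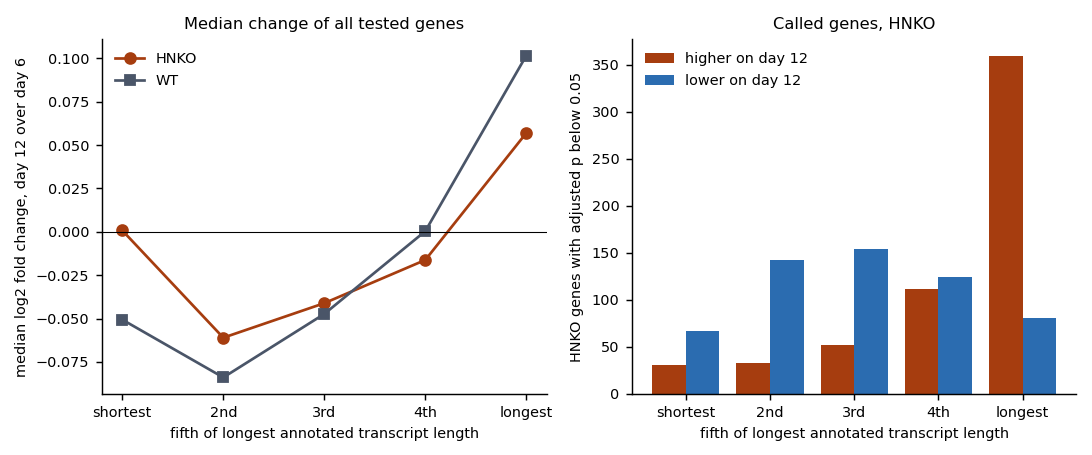
Genes are in 5 equal groups by the length of the longest annotated transcript (x axes). The left panel gives the median log2 fold change of day 12 over day 6 in HNKO and WT, and the right panel counts the HNKO genes called higher and lower, of which 359 higher genes are in the longest group.

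The genes with the smallest p-values for a difference between the HNKO and WT day changes did not pass correction and are given as values. Crybb3, a crystallin, was at 2.76, 2.73, 2.42, 3.38 and 3.05 on day 6 and at -0.42 to 1.0 with a median of 0.56 on day 12 in HNKO. It fell without overlap by 2.50 ± 0.35 (adjusted p = 3.93e-05) and 5 of the 6 day 12 libraries lay within the WT range of -0.18 to 1.27, the WT change being -0.19 ± 0.40. Jph1, a junctophilin, was at -0.03, 0.09, 0.46, -0.41 and 0.72 on day 6 and at 0.75 to 2.35 with a median of 1.14 on day 12. All day 12 libraries were higher, by 1.17 ± 0.27 (adjusted p = 0.006), library 11 being highest, and WT gave -0.61 ± 0.29. Without libraries 11, 13 and 35 it changed by 0.82 and was not called, nor was it with only the 2 groups fitted (1.18) or with all 40 libraries (1.20). Mme, the membrane peptidase neprilysin, was at 5.48, 4.70, 5.08, 5.03 and 5.34 and at 5.55 to 6.26 with a median of 5.76. It rose without overlap by 0.71 ± 0.13 (adjusted p = 0.000736) and was still below WT on day 12 (-0.42 ± 0.13, adjusted p = 0.0366). The oxidoreductase gene Ero1l and the complement receptor gene C5ar1 fell by 0.88 ± 0.18 and 1.33 ± 0.33 (adjusted p = 0.00167 and 0.0127) beside positive WT values of 0.20 ± 0.20 and 0.85 ± 0.44, and C5ar1 was not called without library 29 (-0.88). With only the 2 groups fitted neither was called (-0.87 and -1.31), and within the 2 runs of libraries Ero1l changed by -0.04 and -1.24 and C5ar1 by -0.03 and -2.08, both being near 0 in the first. Crybb3 changed by -2.04 and -2.85 and Mme by 0.60 and 0.83 in the 2 runs. For Cyp3a11, a drug-metabolising P450, the changes were 0.53 ± 0.20 in HNKO (adjusted p = 0.125) and -0.71 ± 0.22 in WT.

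The largest called fall belonged to Mup17, a major urinary protein gene, chosen after its values were seen. It was at 6.86, 0.65, 2.79, 6.82 and 6.72 on day 6 and at -1.20 to 2.83 with a median of 1.49 on day 12. Libraries 6, 30 and 31 of day 6 were high, and libraries 7 and 29 lay within the day 12 range. The change was -4.28 ± 0.87 (adjusted p = 0.00217), against -0.16 ± 0.85 in WT, and on day 12 its HNKO level was below the WT range of 4.59 to 6.73 in all 6 libraries (-4.03 ± 0.87, adjusted p = 0.00574). As 77.8% of its 51-base stretches occur in other genes of its family, its reads may be split among them.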

How the data were processed

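Total RNA of whole liver was depleted of rRNA and sequenced as 51-bp paired-end reads. Per the notes of the submitters, the reads were mapped with STAR (version 2.7.2b) on GRCm38. The authors counted them on GENCODE genes with featureCounts (version 1.6.4) and deposited raw gene counts without normalization. Use of strand in counting is not given in the sources used here, so antisense and overlapping genes are uncertain. The labels mark 2 libraries of day 21 as failing quality control, and these were left out.

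Of 55487 listed genes, 20297 passed the filter (edgeR filterByExpr, minimum count 10, minimum total 15), which kept 99.937% of counts. All 38 libraries and their genotype-by-day groups were fitted together with edgeR (version 4.0.16, R version 4.3.3, TMM scaling, quasi-likelihood F-test), and p-values were adjusted by Benjamini-Hochberg over all tested genes, a gene being called at an adjusted p below 0.05. Changes are log2 fold changes ± SE, and levels are log2 CPM with a prior count of 2. Exact permutation tests were two-sided over the 11 libraries. No pair of replicates was a duplicate (41 pairs within groups, lowest chi-square per gene 13.96). The labels do not say whether libraries came from separate litters or days, so p-values measure the spread between libraries.

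Members, the 40 gene lists and the rule for named genes were chosen with earlier results of these data known. The rule took, per list, up to 6 called genes in each direction, or 3 genes where fewer than 3 were called, as well as the 12 rises and 12 falls of smallest p without overlap, the 6 genes of smallest p in each direction of the test of the difference between genotypes, and 6 genes that differed on days 3 and 12. For genes taken by smallest p without overlap, the change and the lack of overlap follow from the choice. Some list genes are not analysed here. The procedure was tested on simulated data. Alternatives were other scaling (RLE), DESeq2 (version 1.42.0), filters, library sets, covariates for the clock score and for the library number series (1 to 21 and 22 to 41), leaving out each library, and, chosen after seeing the data, leaving out libraries 11, 13 and 35, adjusting for transcript length, and list medians within each number series. Promoters came from RefSeq (GRCm38.p6) and lengths from GENCODE M21.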

Additional observations from a re-analysis of the deposited data

Results flagged for a closer look

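Of 60 groups of libraries examined, 1 value stood far from the others of its group. Jph1 was at 2.3507 log2 CPM in day 12 HNKO library 11, against 0.75 to 1.21 in the other day 12 HNKO libraries. Library 11 is also the library with the highest summed level of the 12 muscle genes, and the part of these in the value was not tested. By chance, about 1 in 20 groups would be flagged in this way.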

How the results depend on the processing

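The number of genes called between day 6 and day 12 in HNKO (1153) was 842 to 1415 with RLE scaling, DESeq2, other filters, robust or newer edgeR estimation, length adjustment, and clock score or number series as covariates. It fell to 533 with only the 2 groups (62.9% higher, against 50.8%), 593 with all 40 libraries (63.1% higher) and 642 without day 12 libraries 11, 13 and 35 (41.9% higher), and ranged from 601 (without library 29) to 1170 over the leave-one-out fits. The test of the difference between genotypes called 0 genes in every fit except DESeq2 (1). The WT day comparison (454) gave 720 with DESeq2, 213 with only its groups, 270 with all 40 libraries, 229 with length adjustment and 271 to 525 on leaving out single libraries. HNKO against WT on day 6 (2596) gave 1325 with only its groups, 1321 with all 40 libraries and 1126 (without library 29) to 3027. On day 12 (1588) it gave 867, 624 and 852 to 1750 likewise, and 3962 with the clock score. On day 3 (945) it gave 1428 with DESeq2 and 331 with all 40 libraries. The cause was not tested where the construction of the alternative does not give it. No paired analysis was possible because library numbers are not shared between groups.

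Over the named genes, 2641 of the alternative values had the direction and call of the main value, 224 lost the call, 6 gained it, 31 reversed and 75 moved by more than 1 SD of the replicates, 48 of these within libraries 1 to 21, 26 within libraries 22 to 41 and 1 with a prior count of 0.5. With only the 2 groups fitted 33 named genes were not called, among them Steap4, Osmr, Il1rn, Tnf, Csf3r, Cxcl10, Lgals3, Lyz2, Folr2, H2-DMa, Oas3, Timp1, Adamts4, Emilin2, Spp1, Muc1, Acadl, Ambp, Lpin1, Srebf2, mt-Nd4, Hmox1, Slc7a11, Cd38, Parp14, Ier3, Ier5, Jph1, Ero1l and C5ar1. With all 40 libraries 24 were not called, among them Fcgr1, Tnfaip8l2, Ifit3b, Gbp2, Ehhadh and Xbp1. Reversals among called genes were those of Tnf (0.005768), Muc1 (-0.4119) and Ier3 (0.1415) within libraries 1 to 21, and Muc1 (-0.1503) without libraries 11, 13 and 35. The others were uncalled genes: Epcam (-0.6228) and Ncam1 (-0.2705) without libraries 11, 13 and 35, and Tec (0.001283) with length adjustment. On leaving out single libraries, the ranges of uncalled genes that crossed 0 were -0.4372 to 0.141 for Epcam, -0.4602 to 0.203 for Krt7, -0.3068 to 0.1232 for Sox9 and -0.2063 to 0.3227 for Ncam1. They were -0.1249 to 0.139 for Atp11a, -0.2644 to 0.04722 for Bicc1, -0.2701 to 0.03688 for Cdh6, -0.2793 to 0.1561 for Cftr and -0.3008 to 0.03049 for Scube3.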
